A study of Gallus gallus with 9 samples.

Results

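The collagen genes are described here across 3 facial prominences (mandibular, maxillary and frontonasal), the tissue buds that build the face of the chicken embryo. A gene was taken as a collagen where its probe set, a group of array probes for a single transcript, carried 1 gene symbol made of COL, a type number, A and a chain number. This gave 41 genes with 121 probe sets, of 13009 genes named on the array and 38439 probe sets tested. Where a gene had several probe sets (31 of the 41), the one with the highest mean signal stands for it and the others serve as a check.

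Collagens hold triple helices of 3 chains, and many of them assemble into fibrils or networks outside the cell. Fibrillar collagens (types I, II, III, V, XI, XXIV and XXVII) form the load-bearing fibrils, and the FACIT collagens (types IX, XII, XIV and relatives) sit on fibril surfaces. Type IV collagen is the network of basement membranes, type VI makes beaded microfilaments, and type XVII spans the membrane of basal epithelial cells. In the embryonic face, neural crest mesenchyme, which later forms cartilage and bone, lies under an epithelium that rests on a basement membrane.

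The arrays hold RNA of untreated chicken embryos, of genotype given only as unknown, at Hamburger Hamilton stage 18 after incubation at 38 °C. Each of the 3 groups had 3 biological replicates, each a pool of 26 to 32 dissected pieces of mandibular prominence, maxillary prominence or frontonasal mass, with mesenchyme and epithelium kept together. P-values therefore measure the spread between such pools. Signals are linear array intensities scaled to the same median on each array. Viral and reporter sequences have 744 probe sets, whose 95th percentile on an array (33.8 to 38.7) was taken as its background.

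The labelled tissue was checked against marker genes. The mesenchymal gene PRRX1 and the epithelial gene EPCAM were above background on every array, with group means of 1616, 1881 and 796 for PRRX1 and 2994, 2555 and 3569 for EPCAM in mandibular, maxillary and frontonasal pools. Frontonasal pool 2 stood apart: 8 of 13 measured liver genes were above background and at their highest there. The fibrinogen gene FGB had 2292 on that array and 49.5 and 50.6 in frontonasal pools 1 and 3. The summed signal of the liver list was 7247 on that array and 1631 to 2062 on the other 8, and 2 of its genes, AHSG and RBP4, were never above background. Results that involve frontonasal pools are therefore given with and without pool 2 where this matters. In the frontonasal pools the summed signal of 10 endothelial markers was 1697 to 2117, against 2883 to 3104 in mandibular and 2625 to 3266 in maxillary pools, with EMCN never above background. The sum of 9 epithelial markers was 5190 to 5523 in mandibular, 4196 to 4801 in maxillary and 5788 to 6610 in frontonasal pools. The ratio of 3′ to 5′ GAPDH control signal, a sign of RNA integrity, was 1.23 to 1.28 in mandibular, 1.19 to 1.29 in maxillary and 1.27 to 1.51 in frontonasal pools. The same ratio for the actin control was 2.01 to 2.17, 1.99 to 2.46 and 1.88 to 2.41 in that order. The part of RNA integrity in the results was not tested. In such bulk samples, fewer cells of a type and less RNA per cell cannot be told apart.

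Of the 41 collagen genes, 34 were above background on at least 1 array and 21 on all 9. Of all 13009 genes, 10534 were above it on at least 1 array. Between mandibular and frontonasal pools 7 of the 41 differed (limma, Benjamini-Hochberg adjusted p under 0.05 over all probe sets), 3 of them higher and 4 lower in mandibular pools, where 4.18% of all genes passed (1.85% higher, 2.33% lower). Between maxillary and frontonasal pools 8 of 41 differed, 4 higher and 4 lower in maxillary pools, against 3.55% of all genes (1.31% higher, 2.24% lower). Between mandibular and maxillary pools 3 of 41 differed, all lower in mandibular pools, against 0.454% of all genes (0.292% higher, 0.161% lower). The moderated F test over the 3 prominences passed 10 of 41 collagens and 4.21% of all genes. The median log2 difference of the 41 was -0.14, 0.03 and -0.08 in the same order of comparisons, and that of all genes was 0.0042, -0.0074 and 0.0082, so the collagens had no common direction. Without frontonasal pool 2, 10 collagens passed for mandibular minus frontonasal, 5 higher and 5 lower (all genes 4.72%, of which 2.54% higher and 2.18% lower). For maxillary minus frontonasal 7 then passed, 4 higher and 3 lower (all genes 3.41%, of which 1.59% higher and 1.82% lower). For mandibular minus maxillary 6 passed, 2 higher and 4 lower (all genes 0.792%, of which 0.561% higher and 0.231% lower), and for the F test 14 (all genes 4.3%). The comparisons of mandibular and of maxillary pools with frontonasal pools share the 3 frontonasal arrays, so their values stand side by side below without a measure of their likeness.

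**Figure D1:**
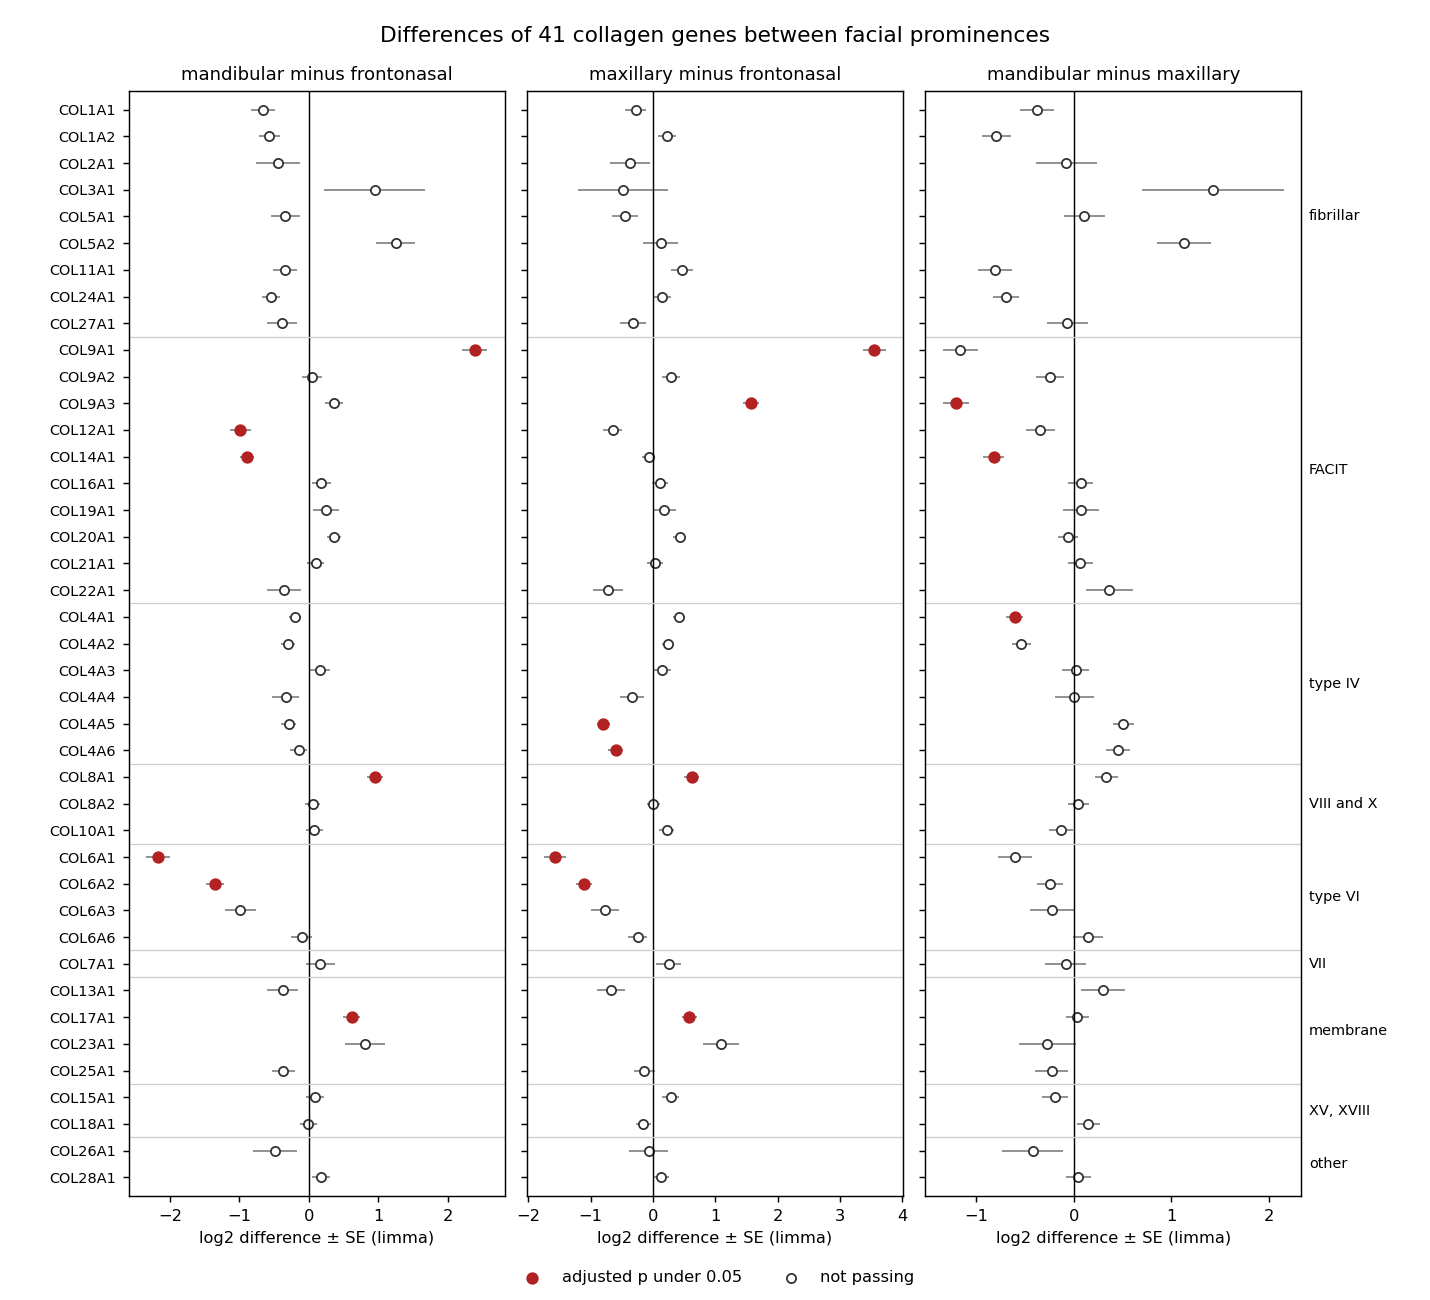
Log2 difference with standard error (x axis) of each of the 41 collagen genes (rows, grouped by class) in the 3 comparisons, with filled points for adjusted p under 0.05. COL9A1 stands far to the right in both comparisons with frontonasal pools, type VI genes stand to the left, and no fibrillar collagen passed.

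The largest collagen difference was that of COL9A1, which encodes the alpha 1 chain of type IX collagen, a FACIT collagen known from cartilage and, in the chick embryo, from cornea and vitreous. COL9A1 had a signal of 166, 173 and 135 in mandibular pools, 359, 310 and 461 in maxillary pools, and 11, 23.9 and 17.4 in frontonasal pools. No frontonasal array was above background, all mandibular and maxillary arrays were, and no 2 groups overlapped. The signal was at least 4.41-fold higher in mandibular than in frontonasal pools (log2 difference 2.39 ± 0.18 SE, limma adjusted p = 0.000382). It was at least 10.4-fold higher in maxillary than in frontonasal pools (3.55 ± 0.18, limma adjusted p = 7.51e-05). These folds set each frontonasal array at its background level, and the log2 values, taken on log2(signal + 16), understate changes of dim genes. Mandibular pools lay below maxillary pools by a log2 difference of -1.16 ± 0.18, which did not pass (adjusted p = 0.0583) but did without frontonasal pool 2 (0.0391). That array enters this comparison only through the shared estimate of spread. The other 2 probe sets of COL9A1 were never above background and did not differ, so the result rests on 1 of 3 probe sets.

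COL9A3, the alpha 3 chain of the same trimer, shared the maxillary maximum but not the mandibular level. Its signal was 42.2, 45.3 and 58.1 in mandibular pools, 125, 123 and 150 in maxillary pools, and 27.8, 36.1 and 37.9 in frontonasal pools. All maxillary arrays lay above all others. COL9A3 was higher in maxillary than in frontonasal pools (1.57 ± 0.13, adjusted p = 0.000645) and lower in mandibular than in maxillary pools (-1.21 ± 0.13, adjusted p = 0.015). The second of these calls was lost when mandibular pool 1 or 2 or any 1 of the 3 maxillary pools was left out (adjusted p 0.0582 to 0.0859). Mandibular against frontonasal pools gave 0.37 ± 0.13 (adjusted p = 0.249), and mandibular arrays were above background while 2 of 3 frontonasal arrays were. A second COL9A3 probe set passed in the same 2 comparisons, with 13.4, 19.5 and 18.9 in mandibular, 89.1, 64.3 and 63.3 in maxillary, and 4.32, 4.03 and 11.4 in frontonasal pools. Another COL9A3 probe set did not differ (adjusted p above 0.9 in each comparison), with 53.7, 47.1 and 41.8 in mandibular, 51, 39.2 and 54.3 in maxillary, and 75.8, 63.6 and 27.5 in frontonasal pools, and the last was never above background. COL9A2, the alpha 2 chain, was never above background.

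Other genes of cartilage matrix were read beside type IX. Of 14 measured genes of a cartilage list, 2 were higher in maxillary than in frontonasal pools (all genes 1.31%), where the list had a median log2 difference of 0.11. None passed for mandibular minus frontonasal (median 0.13) or mandibular minus maxillary (-0.03), where 3 of 14 had an unadjusted limma p under 0.05 in each. Of all 13009 genes, 2187 and 1057 had such an unadjusted p in these 2 comparisons. When frontonasal pool 2 was left out, 1 gene was higher in mandibular than in frontonasal pools, HAPLN1, a link protein of cartilage (0.86, adjusted p = 0.0324), and 1 in maxillary than in frontonasal pools. Of all genes 2.54% and 1.59% then did so. MATN4, a matrilin that links matrix fibrils, had 69.1, 59.9 and 61 in maxillary pools and 25.8, 24.2 and 29.5 in frontonasal pools, none of the frontonasal arrays being above background. It was at least 1.77-fold higher in maxillary pools (log2 difference 0.90 ± 0.10, adjusted p = 0.00298). LECT1, which encodes the cartilage glycoprotein chondromodulin, had 340, 326 and 335 in maxillary pools and 231, 193 and 138 in frontonasal pools (0.81 ± 0.17, adjusted p = 0.0487). This last call was lost in 8 of the 9 fits that each left out 1 array, all but the one without frontonasal pool 1 (adjusted p 0.0619 to 0.14). SOX9, the transcription factor that drives cartilage formation, was on no array above background. Eye tissue is another known source of type IX collagen. The sum of 11 eye, lens and vitreous markers was 476 to 499 in mandibular, 483 to 598 in maxillary and 545 to 716 in frontonasal pools, and CRYAA, CRYBB1, BFSP1 and PMEL were never above background. Of the 11, 2 were lower in mandibular and 2 in maxillary than in frontonasal pools (all genes 2.33% and 2.24%). In each of these comparisons 5 log2 differences were positive and 6 negative. The part of eye tissue in the type IX signals was not tested.

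Types XII and XIV, the FACIT collagens of dense connective tissue and embryonic mesenchyme, ran against the direction of COL9A1 between mandibular and frontonasal pools. COL12A1 had 178, 137 and 146 in mandibular, 224, 169 and 204 in maxillary and 371, 266 and 325 in frontonasal pools, with each frontonasal array above all others. It was lower in mandibular than in frontonasal pools (-0.98 ± 0.15, adjusted p = 0.0123), a call lost without mandibular pool 2 (0.0579) or mandibular pool 3 (0.0545). Maxillary against frontonasal pools gave -0.64 ± 0.15 (adjusted p = 0.0818). For COL12A1, 3 of 4 probe sets passed between mandibular and frontonasal pools, and 1 of them, not the brightest, passed between maxillary and frontonasal pools (-0.73 ± 0.09, adjusted p = 0.00505).

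COL14A1 separated mandibular pools from both others. Its signal was 760, 783 and 823 in mandibular pools, 1572, 1416 and 1251 in maxillary pools, and 1574, 1350 and 1514 in frontonasal pools. The mandibular arrays lay below all others, and the other 2 groups overlapped. The log2 difference was -0.89 ± 0.10 for mandibular minus frontonasal (adjusted p = 0.0034) and -0.07 ± 0.10 for maxillary minus frontonasal (adjusted p = 0.854). Mandibular minus maxillary gave -0.82 ± 0.10 (adjusted p = 0.0275), a call lost when any 1 of the 6 mandibular and maxillary arrays was left out (0.0578 to 0.133). A dimmer COL14A1 probe set was also lower in mandibular than in frontonasal pools (-1.22 ± 0.16, adjusted p = 0.00557), so 2 of its 6 probe sets passed.

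Of the other 5 FACIT genes none passed. COL20A1 had 73.1, 83.1 and 90.3 in mandibular, 90.7, 79.7 and 89.2 in maxillary, and 53.1, 61.8 and 66.1 in frontonasal pools, without overlap of frontonasal pools with either other group (adjusted p = 0.138 and 0.0837). COL16A1, COL19A1, COL21A1 and COL22A1 were above background on some arrays only, with signals between 7.21 and 57.3. COL19A1 lies next to COL9A1 in the chicken reference (assembly GRCg7b). Its brightest probe set had 35.5, 31.3 and 38.4 in mandibular, 34.8, 40.2 and 24.1 in maxillary, and 40.4, 20.6 and 22.1 in frontonasal pools and did not differ. A dimmer one, never above background, passed in both comparisons with frontonasal pools (log2 1.01 and 0.80), and no fold is given for it.

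**Figure D2:**
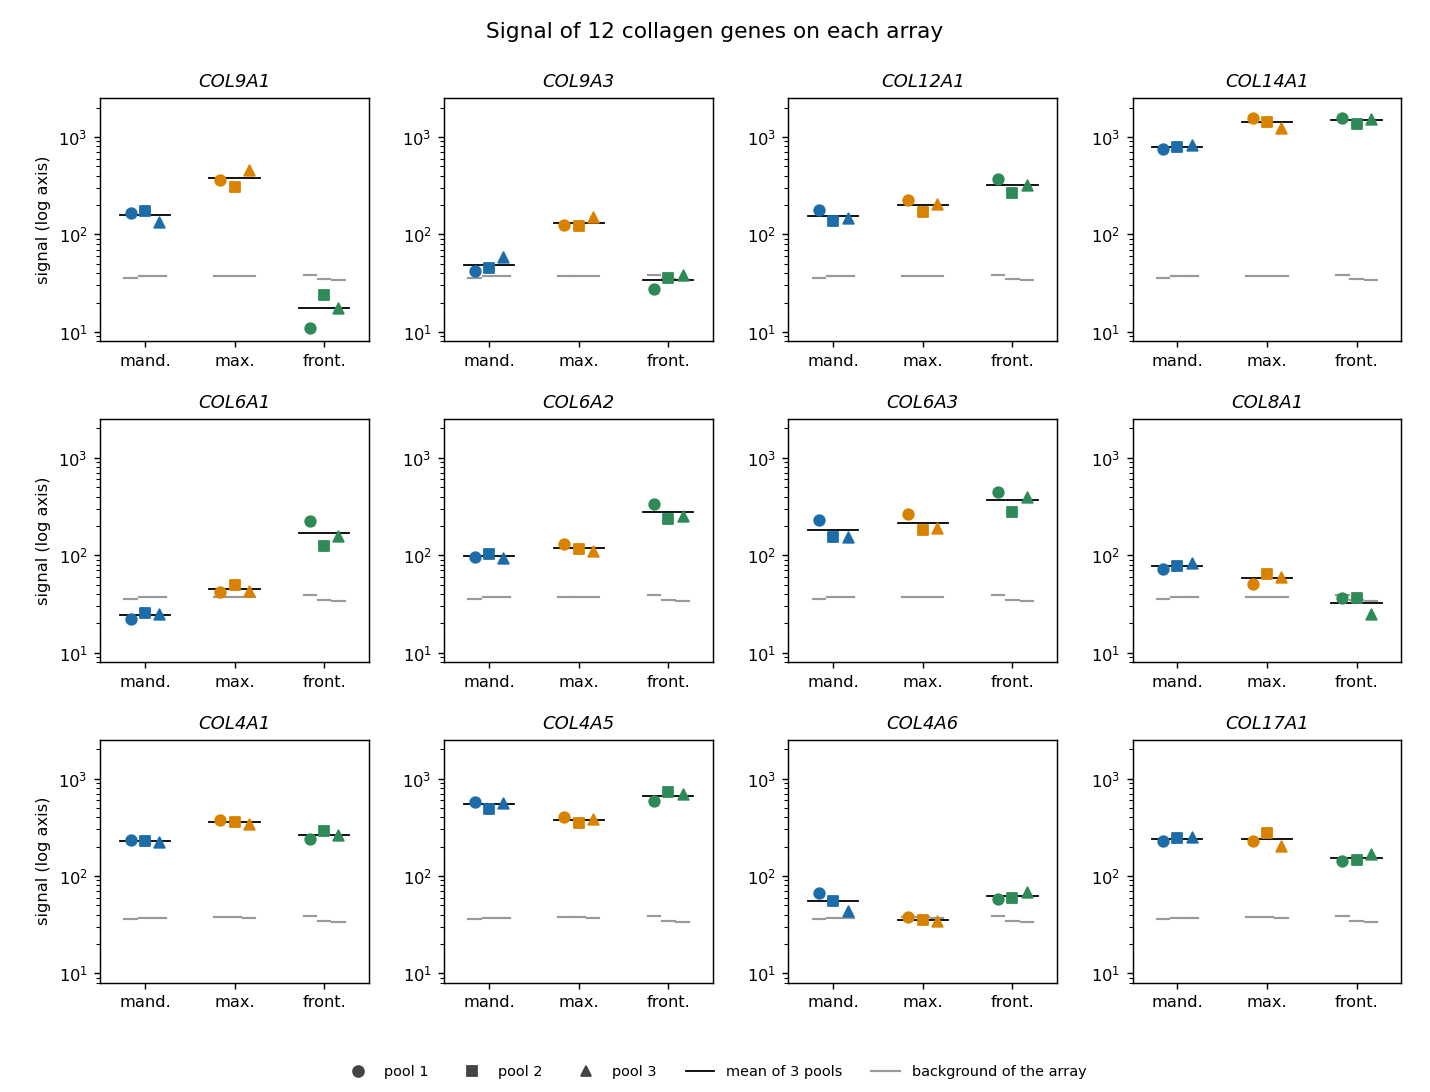
Signal (log axis) of 12 collagen genes on each array, by prominence from left to right mandibular, maxillary and frontonasal, with a marker for each pool, a black line for the mean of 3 pools and a grey line for the background of that array. COL9A1 is below background in all frontonasal pools, COL6A1 is below it in all mandibular pools, and COL14A1 is low in mandibular pools alone.

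Of 4 measured type VI genes, 2 were lower in mandibular and in maxillary than in frontonasal pools (all genes 2.33% and 2.24%). COL6A1, COL6A2 and COL6A3 encode the 3 chains of the usual trimer. COL6A1 had 22, 25.3 and 24.8 in mandibular pools, 41.6, 49.4 and 43.4 in maxillary pools, and 226, 124 and 157 in frontonasal pools. No 2 groups overlapped, and no mandibular array was above background. COL6A1 was at least 4.46-fold higher in frontonasal than in mandibular pools (mandibular minus frontonasal -2.17 ± 0.18, adjusted p = 0.000527). Maxillary minus frontonasal gave -1.57 ± 0.18 (adjusted p = 0.00303) and mandibular minus maxillary -0.60 ± 0.18 (adjusted p = 0.397). The other 2 COL6A1 probe sets did not differ, and with the mean of all 3 in place of the brightest the maxillary call was lost.

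COL6A2 had 95.9, 102 and 94.1 in mandibular, 130, 114 and 110 in maxillary, and 337, 235 and 253 in frontonasal pools, with all frontonasal arrays above all others. The differences were -1.35 ± 0.13 for mandibular minus frontonasal (adjusted p = 0.00133) and -1.10 ± 0.13 for maxillary minus frontonasal (adjusted p = 0.00389). Its second probe set did not differ. COL6A3 had 233, 156 and 152 in mandibular, 265, 180 and 191 in maxillary, and 449, 277 and 393 in frontonasal pools. Its frontonasal arrays also lay above all others, yet neither comparison with frontonasal pools passed (-0.99 ± 0.23, adjusted p = 0.0678, and -0.77 ± 0.23, adjusted p = 0.159). Without frontonasal pool 2 COL6A3 was lower in mandibular than in frontonasal pools (-1.18, adjusted p = 0.0331). Markers of forebrain and of neural crest mesenchyme, itself a tissue of the prominences, also differed between these pools, in both directions. Of 6 measured forebrain markers 3 were lower in mandibular and 3 in maxillary than in frontonasal pools (all genes 2.33% and 2.24%). Their log2 differences were positive in 3 and negative in 3 for mandibular minus frontonasal. For maxillary minus frontonasal 1 was positive and 5 were negative. The sum of the 6 was 622 to 822 in mandibular, 469 to 523 in maxillary and 979 to 1307 in frontonasal pools. The sum of 7 neural crest mesenchyme markers was 3072 to 3509 in mandibular, 3147 to 3811 in maxillary and 1797 to 2019 in frontonasal pools, with ALX4 never above background. PRRX1, whose group means are given above, makes up a large part of this sum. The log2 differences of the 7 were positive in 5 and negative in 2 for mandibular minus frontonasal, and positive in 6 and negative in 1 for maxillary minus frontonasal. The part of either tissue in the type VI signals was not tested. COL6A6, a chain that can take the place of alpha 3, was never above background. Of the 7 measured collagen receptors, 1 passed: ITGA2, the alpha subunit of a collagen-binding integrin. Of all genes 2.33% were lower in mandibular and 2.24% in maxillary than in frontonasal pools. ITGA2 had 38.3, 36 and 38.3 in mandibular, 32.9, 26.3 and 30.4 in maxillary, and 65.6, 57 and 73.1 in frontonasal pools. It was lower in mandibular than in frontonasal pools (-0.60 ± 0.10, adjusted p = 0.0155), a call lost without any 1 mandibular pool or without frontonasal pool 1 (0.0552 to 0.0694). It was at least 1.73-fold higher in frontonasal than in maxillary pools (maxillary minus frontonasal -0.82 ± 0.10, adjusted p = 0.00379).

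Of 6 measured type IV genes, none passed for mandibular minus frontonasal. In maxillary pools 2 were lower than in frontonasal pools (all genes 2.24%), and 1 was lower in mandibular than in maxillary pools (all genes 0.161%). COL4A1 and COL4A2, whose chains form the trimer found in nearly all basement membranes, lie next to each other in GRCg7b, as do COL4A3 and COL4A4, and COL4A5 and COL4A6. COL4A1 had 232, 229 and 225 in mandibular, 371, 356 and 342 in maxillary, and 240, 291 and 263 in frontonasal pools. No 2 groups overlapped. COL4A1 was lower in mandibular than in maxillary pools (-0.61 ± 0.09, adjusted p = 0.0375), a call lost when any 1 of the 6 mandibular and maxillary arrays or frontonasal pool 3 was left out (0.072 to 0.156). Maxillary minus frontonasal was 0.41 ± 0.09 (adjusted p = 0.0516, or 0.0383 without frontonasal pool 2). COL4A2 kept the same order of groups, again without overlap, with 460, 388 and 388 in mandibular, 566, 669 and 581 in maxillary, and 529, 490 and 503 in frontonasal pools, and its brightest probe set passed in no comparison (adjusted p = 0.233, 0.326 and 0.113). A dimmer COL4A2 probe set was higher in maxillary than in frontonasal pools (0.67 ± 0.13, adjusted p = 0.0356).

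COL4A5 and COL4A6, chains of more restricted basement membranes, each passed for maxillary minus frontonasal only. COL4A5 had 577, 492 and 564 in mandibular, 400, 350 and 385 in maxillary, and 591, 728 and 686 in frontonasal pools, again without overlap. It was lower in maxillary than in frontonasal pools (-0.79 ± 0.11, adjusted p = 0.00722). With the mean of its 4 probe sets in place of the brightest, this call was lost. The second brightest, above background on all arrays, pointed the other way without passing (0.28 ± 0.24, limma adjusted p = 0.691). It had 90, 72 and 94.1 in maxillary and 41.6, 83.4 and 84.4 in frontonasal pools. The remaining probe sets gave -0.44 and -0.31 and did not pass. COL4A6 had 66.5, 55.4 and 44.1 in mandibular, 37.7, 35.2 and 34.3 in maxillary, and 58.1, 59.4 and 69.2 in frontonasal pools, and only 1 maxillary array was above background. Its difference of -0.59 ± 0.12 between maxillary and frontonasal pools (adjusted p = 0.0461) was lost in 7 of the 9 fits that each left out 1 array, all but those without mandibular pool 1 or 3 (0.0835 to 0.146). Mandibular minus maxillary gave 0.51 ± 0.11 for COL4A5 (adjusted p = 0.17) and 0.45 ± 0.12 for COL4A6 (adjusted p = 0.313). COL4A3 was never above background, and COL4A4 was above it on 1 array.

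**Figure D3:**
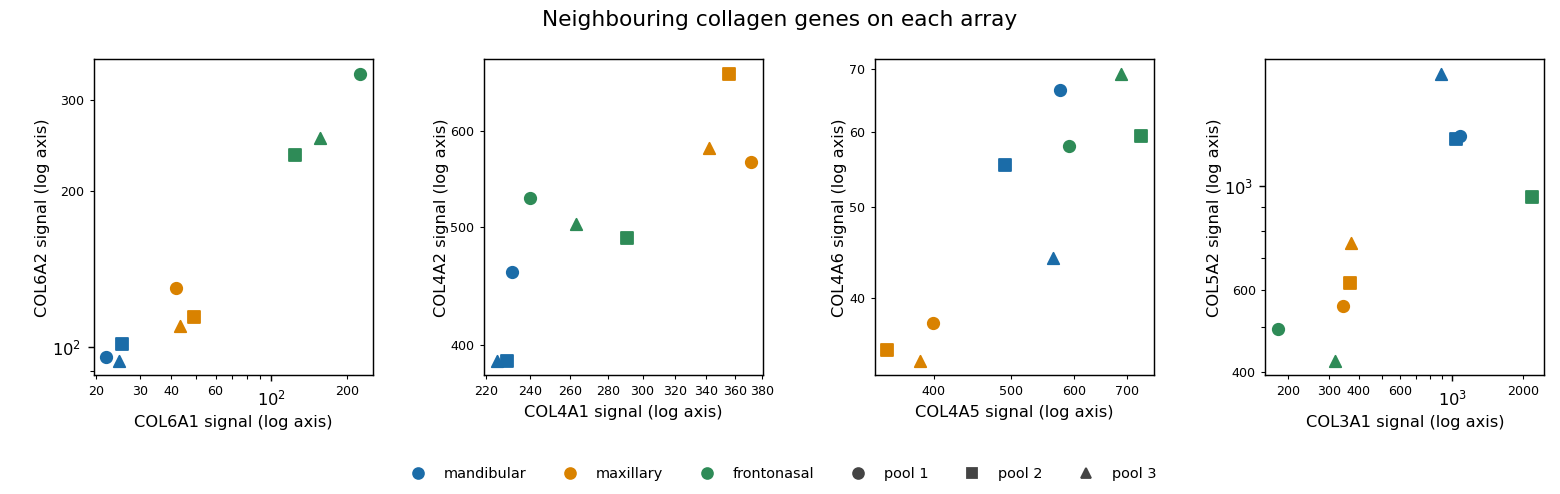
Signals of neighbouring collagen genes on the 9 arrays, with 1 gene of a pair on each log axis, colour for the prominence and marker shape for the pool. COL6A1 and COL6A2 are highest in the 3 frontonasal pools, COL4A1 and COL4A2 in the 3 maxillary pools, COL4A5 and COL4A6 are lowest in maxillary pools, and COL3A1 and COL5A2 have their highest signals in mandibular pools and in frontonasal pool 2.

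Among 16 measured partners of type IV collagen in basement membranes, 2 passed for mandibular minus frontonasal, 2 for maxillary minus frontonasal and 1 for mandibular minus maxillary. Of all genes 4.18%, 3.55% and 0.454% passed in that order. AGRN, the heparan sulfate proteoglycan agrin, had 340, 322 and 316 in mandibular, 273, 270 and 210 in maxillary, and 659, 591 and 604 in frontonasal pools. Its frontonasal arrays were far above all others (-0.89 ± 0.11, adjusted p = 0.00421, for mandibular minus frontonasal and -1.25 ± 0.11, adjusted p = 0.000857, for maxillary minus frontonasal). LAMA5, a laminin chain, had 149, 159 and 127 in maxillary pools and 219, 274 and 242 in frontonasal pools (-0.70 ± 0.11, adjusted p = 0.0189), a call lost without maxillary pool 1 or 3 or frontonasal pool 3 (0.0554 to 0.0638). NID1, nidogen, which bridges laminin and type IV collagen, had 1180, 1038 and 1117 in mandibular and 697, 629 and 658 in maxillary pools. NID1 was thus higher in mandibular pools (0.73 ± 0.10, adjusted p = 0.0329), where COL4A1 was lower, and its call was lost in 7 of 9 fits without 1 array, all but those without frontonasal pool 2 or 3 (0.052 to 0.144). PXDN, the peroxidase that crosslinks type IV collagen, averaged 1382 ± 98.1 in mandibular pools, against 989 ± 75.9 in frontonasal pools (SD, n = 3 each), and passed at 0.48 ± 0.09 (log2 ± SE, limma adjusted p = 0.0285). The PXDN call was also lost in 7 of 9 such fits, all but those without maxillary pool 1 or frontonasal pool 2 (0.0513 to 0.106). With frontonasal pool 2 left out, 3 of the 16 were higher in mandibular than in frontonasal pools (all genes 2.54%), NID1 (adjusted p = 0.0419) and LAMA4 (0.0385) joining PXDN. The medians of the list were -0.07, -0.23 and 0.08 for mandibular minus frontonasal, maxillary minus frontonasal and mandibular minus maxillary. Endothelial and epithelial cells both make type IV collagen, and the part of their marker sums, given above, in these differences was not tested.

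COL8A1 and COL17A1 were higher in mandibular and maxillary than in frontonasal pools. COL8A1 encodes a chain of the short, network-forming type VIII collagen. It had 72.8, 76.9 and 82.8 in mandibular, 50.8, 64.6 and 59.8 in maxillary, and 36.5, 36.2 and 24.8 in frontonasal pools. No 2 groups overlapped, and 1 frontonasal array was above background. COL8A1 was higher in mandibular than in frontonasal pools (0.96 ± 0.12, adjusted p = 0.0051). Maxillary minus frontonasal gave 0.62 ± 0.12 (adjusted p = 0.0396), a call lost in each of the 9 fits that left out 1 array (0.0558 to 0.144). Both calls were lost with the mean of the 3 COL8A1 probe sets in place of the brightest (0.455 and 0.526). COL8A2, the other type VIII chain, lay between 95.6 and 126 on all arrays and did not differ, and COL10A1 was never above background.

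COL17A1, the collagen of hemidesmosomes that fasten epithelial cells to the basement membrane, had 228, 245 and 252 in mandibular, 229, 277 and 205 in maxillary, and 141, 146 and 169 in frontonasal pools. All frontonasal arrays lay below all others. The differences were 0.62 ± 0.12 (adjusted p = 0.0327) for mandibular minus frontonasal and 0.58 ± 0.12 (adjusted p = 0.0453) for maxillary minus frontonasal. The mandibular call was lost without any 1 mandibular pool, maxillary pool 1 or frontonasal pool 1 or 2 (0.0571 to 0.116). The maxillary call was lost in all such fits but the one without maxillary pool 3 (0.058 to 0.128). Of 9 measured epithelial markers, 1 was higher and 2 were lower in mandibular than in frontonasal pools (all genes 1.85% and 2.33%). Of the same markers, 1 was higher and 3 were lower in maxillary than in frontonasal pools (all genes 1.31% and 2.24%). With their sums given above, the part of the epithelial share in the COL17A1 signal was not tested. The gene has 1 probe set. Of the other membrane-spanning collagens, COL13A1 lay between 175 and 424 on its brightest probe set, and COL25A1 was above background on 1 array. None of the 6 COL13A1 probe sets differed, and 4 of them were never above background.

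In the main fit with all arrays, none of the 9 measured fibrillar collagens passed in any comparison, though some did under other settings given below. The unadjusted limma p of the main fit was under 0.05 in 4 of 9 for mandibular minus frontonasal, 1 for maxillary minus frontonasal and 4 for mandibular minus maxillary. Of all 13009 genes, 2187, 2247 and 1057 had such an unadjusted p in the same order. Without frontonasal pool 2, 2 of the 9 were higher in mandibular than in frontonasal pools (all genes 2.54%) and 2 were higher in mandibular than in maxillary pools (all genes 0.561%), in both cases COL3A1 and COL5A2. The F test passed none of the 9 with all arrays (all genes 4.21%). Without frontonasal pool 2 it passed 4 (all genes 4.3%), namely COL3A1, COL5A2, COL11A1 and COL24A1. With all arrays the median differences were -0.38, -0.28 and -0.08.

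COL3A1 encodes type III collagen, a fibril of soft tissue, skin and vessel walls. It had 1072, 1031 and 894 in mandibular pools, 344, 367 and 370 in maxillary pools, and 181, 2172 and 316 in frontonasal pools. The mandibular arrays were all above the maxillary ones, and the frontonasal pools spanned both groups, with pool 2 the highest of all 9 arrays. With all arrays the differences were 0.95 ± 0.73 for mandibular minus frontonasal (adjusted p = 0.657) and 1.43 ± 0.73 for mandibular minus maxillary (0.784). Without frontonasal pool 2 they were 1.98 (adjusted p = 0.00263) and 1.43 (0.0269). A fit of the mandibular and maxillary arrays alone also passed (adjusted p = 0.00591). A dimmer COL3A1 probe set, mostly below background, was also highest in frontonasal pool 2, with 38.3, 41.4 and 22.1 in mandibular, 6.11, 13 and 6.27 in maxillary, and 2.35, 96.5 and 4.84 in frontonasal pools. Another was not, with 49.2, 52.5 and 18.5 in mandibular, 40.2, 29.2 and 23.2 in maxillary, and 29.9, 20.8 and 18 in frontonasal pools. Of the 6 COL3A1 probe sets 3 were never above background.

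COL5A2, a chain of the type V collagen that starts fibrils and the neighbour of COL3A1 in GRCg7b, had 1279, 1263 and 1742 in mandibular, 552, 620 and 756 in maxillary, and 495, 946 and 422 in frontonasal pools. Mandibular arrays did not overlap with either other group. The other 2 COL5A2 probe sets were never above background, so its values rest on 1 of 3 probe sets. The mandibular minus frontonasal difference of 1.25 ± 0.28 did not pass with all arrays (adjusted p = 0.0635) and was 1.59 without frontonasal pool 2 (0.00473). Mandibular minus maxillary was 1.13 ± 0.28 (adjusted p = 0.275), or 0.0431 as adjusted p without that array. The membrane-spanning COL23A1 was the third collagen that set this array apart. It had 354, 245 and 275 in mandibular, 380, 324 and 352 in maxillary, and 122, 276 and 113 in frontonasal pools. Without frontonasal pool 2, COL23A1 was higher in mandibular (1.19, adjusted p = 0.00732) and in maxillary (1.46, adjusted p = 0.00348) than in frontonasal pools, against 0.81 (0.249) and 1.09 (0.117) with it. Of its other probe sets neither passed with or without that pool. One of them had 39.9, 65.6 and 34.6 in mandibular, 42.9, 49.3 and 54.2 in maxillary, and 59.7, 49.8 and 62 in frontonasal pools. There frontonasal pool 2 was the lowest of its group, and the differences without it were -0.32 and -0.25. The remaining probe set, above background on some arrays only, had 46.5, 38.4 and 11.5 in mandibular, 34.6, 56.9 and 52.5 in maxillary, and 25.1, 44.5 and 8.46 in frontonasal pools. On it frontonasal pool 2 was the highest of its group, and the differences without it were 0.52 and 0.99. Marker sums of some other tissues were also higher on frontonasal pool 2 than on frontonasal pools 1 and 3, and those of others were lower. The sum of 7 neuron markers was 1061, against 617 and 600, and that of 5 notochord markers 425, against 258 and 259. The sum of 10 heart and muscle markers was 1237, against 913 and 1089, and that of the 10 endothelial markers 2117, against 1788 and 1697. Erythroid and leukocyte sums were slightly higher there. Among the heart and muscle genes, frontonasal pool 2 had 90.7 for NKX2-5, against 2.42 and 1.05 in pools 1 and 3. It had 115 for TNNT2, against 20.2 and 45.8, and 417 for TNNC1, against 134 and 231. MYL4 was lower on it (494, against 629 and 707), as were MYOD1 and MYF5, both below background in each frontonasal pool. The highest signal on any other array was 93.4 for NKX2-5 and 129 for TNNT2. Lower on pool 2 were the sums of forebrain (979, against 1307 and 1304), eye (545, against 716 and 667) and neural crest markers (1797, against 1849 and 2019). Those of the epithelial and of the pancreas, gut and kidney markers lay between the other pools. The part of liver or other tissue in the signals of these 3 collagens was not tested.

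**Figure D4:**
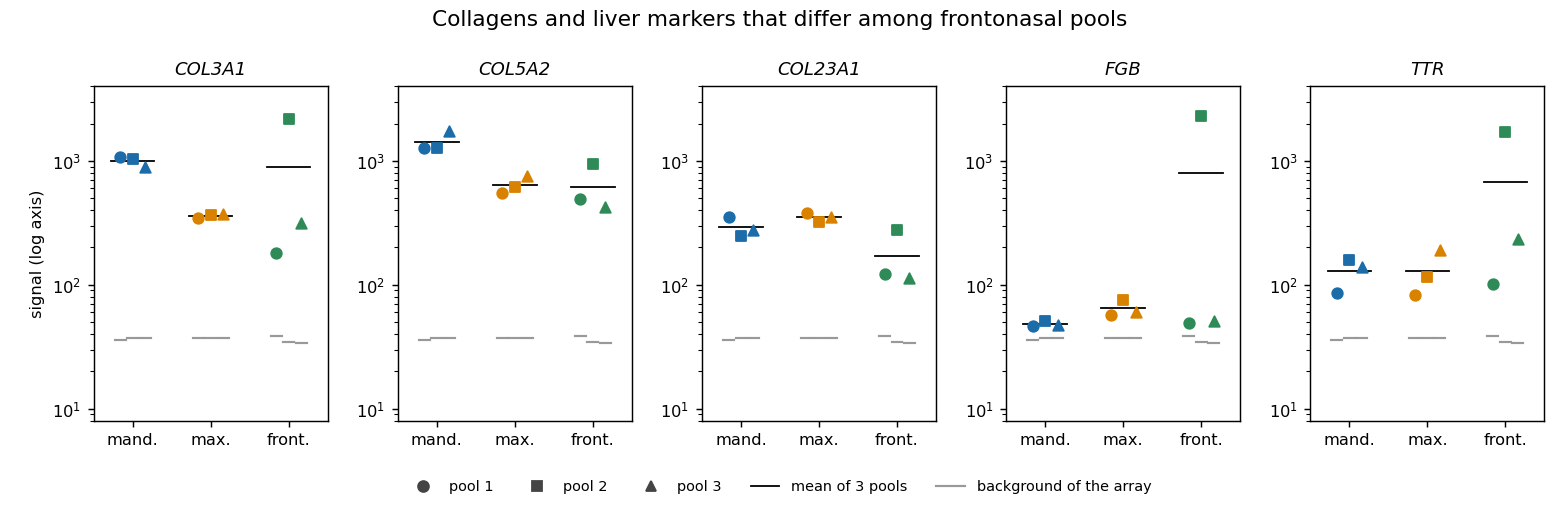
Signal (log axis) of 3 collagens and 2 liver markers on each array, by prominence from left to right mandibular, maxillary and frontonasal, with a marker for each pool, a black line for the mean of 3 pools and a grey line for the background. In frontonasal pool 2 COL3A1, COL5A2, COL23A1, FGB and TTR are each above the other 2 frontonasal pools.

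The type I chains, the main fibril of bone and connective tissue, were above background on every array. COL1A1 had 1502, 1164 and 1181 in mandibular, 2113, 1496 and 1439 in maxillary, and 2303, 1795 and 1972 in frontonasal pools. The mandibular arrays lay below the frontonasal ones without overlap (-0.65 ± 0.17, adjusted p = 0.115). COL1A2 had 1631, 1292 and 1250 in mandibular, 2945, 2146 and 2218 in maxillary, and 1942, 2031 and 2199 in frontonasal pools. Its mandibular arrays were below both other groups (-0.57 ± 0.15, adjusted p = 0.107, against frontonasal and -0.80 ± 0.15, adjusted p = 0.11, against maxillary pools). A second COL1A2 probe set was lower in mandibular than in frontonasal pools (-0.48 ± 0.09, adjusted p = 0.0288).

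COL11A1 and COL24A1 encode minor fibrillar chains, and neither passed in any of the 3 pairwise comparisons with its brightest probe set. In the F test without frontonasal pool 2 both passed (moderated F, adjusted p = 0.04974 and 0.04755). COL11A1 had 272, 199 and 193 in mandibular, 367, 390 and 432 in maxillary, and 319, 217 and 322 in frontonasal pools, and mandibular and maxillary arrays did not overlap (-0.81 ± 0.18, adjusted p = 0.187). Mandibular and frontonasal arrays did (-0.34 ± 0.18, adjusted p = 0.461). A second COL11A1 probe set passed in mandibular minus maxillary (-0.98 ± 0.13, adjusted p = 0.0327) and in maxillary minus frontonasal (0.73 ± 0.13, adjusted p = 0.0282). COL24A1 had 318, 381 and 337 in mandibular, 655, 492 and 564 in maxillary, and 518, 449 and 565 in frontonasal pools, with mandibular arrays below all others. Its brightest probe set gave -0.54 ± 0.13 for mandibular minus frontonasal (adjusted p = 0.0822) and -0.69 ± 0.13 for mandibular minus maxillary (0.113). The other COL24A1 probe set passed in both (-0.80 ± 0.13, adjusted p = 0.0174, and -0.90 ± 0.13, adjusted p = 0.0445). In the main fit with all arrays, the pairwise calls for COL1A2, COL11A1 and COL24A1 therefore turned on which probe set stood for the gene.

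COL2A1 and COL5A1 did not pass in any comparison with any of their probe sets. COL2A1, the main fibril of cartilage on which type IX collagen sits, had 208, 186 and 146 in mandibular, 212, 207 and 153 in maxillary, and 447, 186 and 182 in frontonasal pools. On this probe set frontonasal pool 1 was high and the groups overlapped (adjusted p = 0.622, 0.694 and above 0.9 for mandibular minus frontonasal, maxillary minus frontonasal and mandibular minus maxillary). A second COL2A1 probe set had 44.2, 37.1 and 33.1 in mandibular, 38, 41.8 and 38 in maxillary, and 73.8, 50.9 and 44.6 in frontonasal pools, with the frontonasal arrays above all others (adjusted p = 0.266 and 0.31 against frontonasal pools). COL5A1 had 576, 425 and 418 in mandibular, 573, 385 and 367 in maxillary, and 600, 724 and 485 in frontonasal pools (adjusted p = 0.56 and 0.404 against frontonasal pools). A second COL5A1 probe set had 373, 295 and 293 in mandibular, 276, 253 and 203 in maxillary, and 369, 459 and 361 in frontonasal pools. Its maxillary arrays lay below both other groups (maxillary minus frontonasal -0.67 ± 0.15, adjusted p = 0.0642, and mandibular minus maxillary 0.38 ± 0.15, adjusted p = 0.629). COL27A1 was never above background, and COL5A3 and COL11A2 were not measured here.

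Of 25 measured genes for collagen synthesis and processing, 2 passed for mandibular minus frontonasal (all genes 4.18%) and none in the other comparisons. The unadjusted limma p was under 0.05 in 6 of 25 for maxillary minus frontonasal and 4 for mandibular minus maxillary, and the medians were -0.03, -0.08 and -0.03. Of all 13009 genes, 2247 and 1057 had such an unadjusted p for maxillary minus frontonasal and mandibular minus maxillary. P4HA3, a catalytic subunit of prolyl hydroxylase, had 78.3, 70.6 and 73.5 in mandibular pools, against 337, 187 and 199 in frontonasal pools (-1.46 ± 0.24, adjusted p = 0.0158), a call lost without any 1 mandibular pool (0.0577 to 0.068). PLOD2, a lysyl hydroxylase that prepares collagen for crosslinking, had 605, 508 and 501 in mandibular pools, against 231, 334 and 269 in frontonasal pools (0.93 ± 0.13, adjusted p = 0.00913). The 2 enzymes thus differed in opposite directions. PLOD2 was also higher in mandibular than in maxillary pools when frontonasal pool 2 was left out (0.70, adjusted p = 0.044).

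The last members gave no difference. COL18A1, a basement membrane collagen that carries endostatin, was above background on all arrays, at 687 to 922, with log2 differences of 0.00, -0.15 and 0.15. COL26A1 and COL28A1 were above background on some arrays only, and COL7A1 and COL15A1 on none.

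The dimmer probe sets bear on how far 1 probe set can speak for a gene. Of the 121, 53 were never above background. Of all 38439 probe sets 2.53% passed for mandibular minus frontonasal, 2.25% for maxillary minus frontonasal and 0.263% for mandibular minus maxillary. COL12A1, COL14A1 and COL9A3 each had more than 1 probe set past the threshold in at least 1 comparison. COL9A1, COL6A1, COL6A2, COL8A1, COL4A1 and COL4A5 each had 1, and COL17A1 and COL4A6 have no second probe set.

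**Figure D5:**
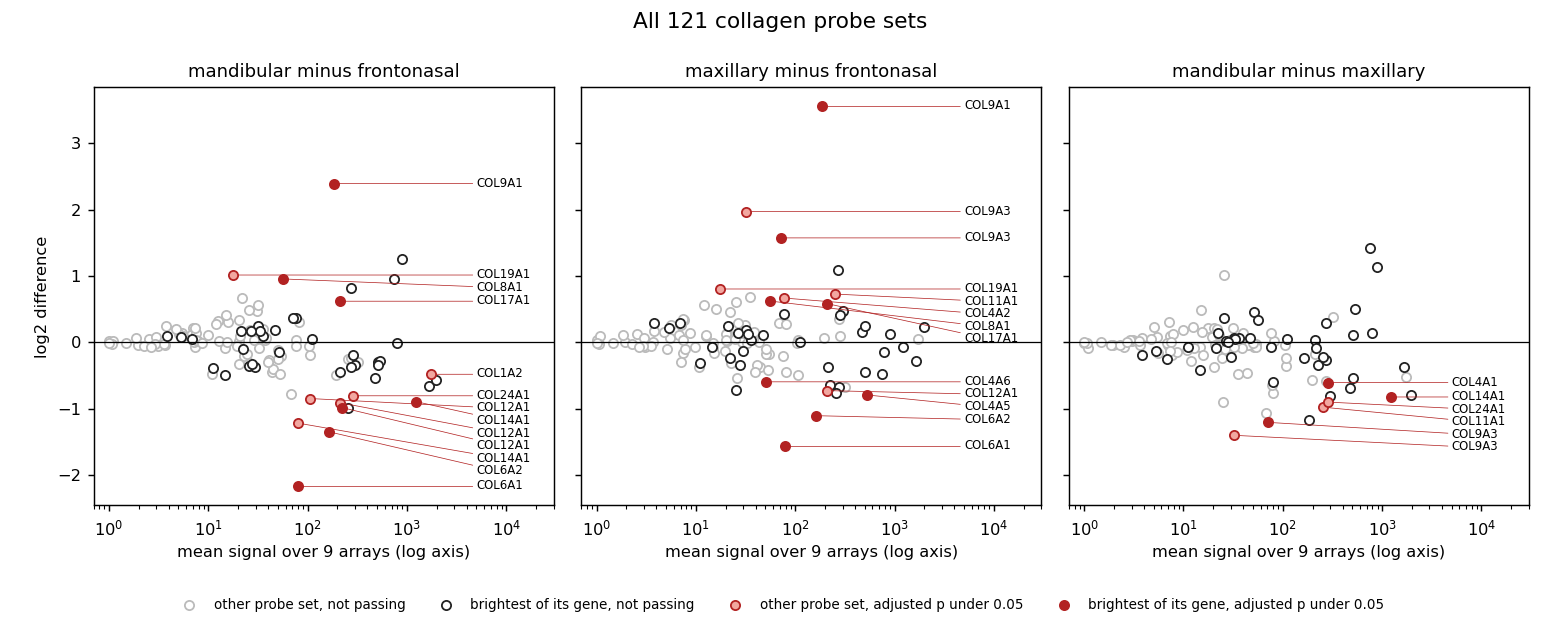
Log2 difference (y axis) against the mean signal over the 9 arrays (x axis, log, with means under 1 drawn at 1) for all 121 collagen probe sets in the 3 comparisons; red marks adjusted p under 0.05 and dark outlines the brightest probe set of a gene. Most probe sets with a mean signal under 10 lie near 0.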

How the data were processed

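The authors deposited a linear intensity for each of 38535 probe sets on 9 arrays. Per the labels, biotinylated cRNA was made from 500 ng of total RNA in a two-cycle procedure. The summarising software and the scan batches were not given in the sources used here. Each deposited intensity column had a mean of 150.03 without its top and bottom 2%, so the authors had scaled the arrays. Here 96 control probe sets were left out, arrays were scaled to a common median (factors 0.9605 to 1.043), and log2(signal + 16) was fitted with limma 3.58.1 in R 4.3.3, with 1 mean per group, 6 residual degrees of freedom, and Benjamini-Hochberg adjustment over 38439 probe sets per comparison. The number of arrays limits the precision. Genes were named from the platform annotation (27168 probe sets with 1 gene, 177 with several, 11094 with none), and names and neighbours were checked in the GRCg7b gene table, which held all 41 collagens. Folds given as "at least" set arrays of a group that was nowhere above background at their background level, or at the signal where that was higher.

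The members and gene lists were chosen with earlier results of these data known. Every collagen was accounted for. Values on each array were given for collagens that passed in any comparison, for type IX and fibrillar members, and for some others with them. Companion genes were named where they passed, at most 4 per list and comparison. HAPLN1 and LAMA4, and the further probe sets shown, were chosen after their values were seen. Alternatives were other scalings, pseudocounts of 4 and 64, leaving out the dimmest 40% of probe sets, the mean of a gene's probe sets, an intensity trend, the replicate number as a block, only the arrays compared, and leaving out each array. The fit was tested on simulated data.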

Additional observations from a re-analysis of the deposited data

How the results depend on the processing

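Of 18 collagen differences that passed, 10 held in all 9 fits that left out 1 array, 9 held under every other setting, 7 held in both, and none changed sign. A pseudocount of 4 and the replicate block each ended 6 of the 18, namely COL14A1 and COL4A1 (mandibular minus maxillary), COL17A1 (both comparisons) and COL4A6 and COL8A1 (maxillary minus frontonasal). The mean of a gene's probe sets also ended 6, namely COL4A5, COL6A1 and COL8A1 (maxillary minus frontonasal), COL8A1 (mandibular minus frontonasal), and COL14A1 and COL4A1 (mandibular minus maxillary). Some settings with all arrays added calls (limma adjusted p). COL1A2 passed with quantile normalization for mandibular minus frontonasal (0.04905) and mandibular minus maxillary (0.0366). COL24A1 passed in both with the mean of its probe sets (0.0239 and 0.0472). COL5A2 passed for mandibular minus frontonasal without the dimmest 40% of probe sets (0.0224). COL9A1 (mandibular minus maxillary) and COL4A1 (maxillary minus frontonasal) also passed under some settings. The count of collagens between mandibular and frontonasal pools was 7, and 5 to 10 with 1 array left out. Between maxillary and frontonasal pools it was 8, and 5 to 7 with 1 array left out. It was 5 with a pseudocount of 4 and 5 with the mean of a gene's probe sets. Between mandibular and maxillary pools it was 3, with 0 to 6 when 1 array was left out. It was 0 without mandibular pool 1 or 2 or any 1 maxillary pool, 1 without mandibular pool 3, 2 without frontonasal pool 3 and 6 without frontonasal pool 2. It was 1 with a pseudocount of 4 and 5 on leaving out the dimmest 40% of probe sets. The F test passed 10, with 7 to 14 when 1 array was left out and 16 on leaving out the dimmest 40%.

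The labels do not say whether equal pool numbers pair the samples. On deviations from the group mean, the 9 correlations between same-numbered pools of different prominences were 0.0166 to 0.12, 1 of them above 0.1. All lay above those between differently numbered pools (-0.095 to 0.0115). Same-numbered pools thus shared some variation, which the main fit did not model. It was small over all probe sets, but not for every collagen. With the replicate block the counts were 8, 7 and 1 in the order above and 9 for the F test. COL12A1 (adjusted p = 0.0159) and COL6A3 (0.0303) then passed between maxillary and frontonasal pools, and COL6A3 (0.0118) and COL1A1 (0.0209) between mandibular and frontonasal pools. Their log2 differences were unchanged, and the SE fell with the block, from 0.17 to 0.09 for COL1A1, 0.23 to 0.11 for COL6A3 and 0.15 to 0.08 for COL12A1. For the calls that the block ended, the SE rose slightly. For COL1A1 and COL6A3, pool 1 was the highest of its group in each prominence. What made same-numbered pools alike was not tested. Dim members, near a background of about 34 to 39, allow bounds only.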
